A study of Drosophila melanogaster with 6 samples.

Results

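Cuticle proteins of the Cpr family were measured as RNA in whole adult female flies of the w1118 genotype, fed a regular diet (RD, Jazz-Mix food) or a high-fat diet (HFD, with coconut oil at 20% weight to volume). All flies were kept in normoxia. The diets began at day 3 to 5 of adult life and lasted 1 week, so the flies were 10 to 12 days old when frozen. Each diet had 3 Affymetrix arrays, and the labels do not tell whether these came from separate vials, so each p-value reflects the spread between 3 samples that may be technical repeats. Members were the genes whose symbol begins with Cpr, Lcp or Pcp and a digit, or with Ccp84 or Acp65, each represented by its brightest probe set with a single gene symbol. This gave 77 genes of the 11982 with such a probe set. Another 18 genes whose names match, among them the larval genes Lcp1, Lcp2, Lcp3 and Lcp4, had no probe set with a single symbol here, and 6 probe sets that name a matching gene beside another were not used.

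Insect cuticle is a layer of chitin fibres and protein laid down by the epidermis and by the linings of the trachea, foregut and hindgut. Proteins of the Cpr family share the Rebers-Riddiford consensus, a stretch that binds chitin, and the mix of family members is thought to set whether a cuticle is stiff or pliable. Most of the genes are known for transcription in bursts around the moults, when new cuticle is made, and adult flies do not moult. The number and letter in a Cpr symbol give the cytological division of the chromosome where the gene lies, and many of the genes sit in clusters.

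The arrays gave MAS5 signals, a linear brightness per probe set. Other genes outside the family are given below only by fixed lists. Yolk genes, which mark females, had a summed signal of 33642 to 34974 in RD and 26799 to 29901 in HFD, and 10 genes of male reproduction had a summed signal of 134 to 191, with 3 of the 10 above the filter on dim probe sets. The actin control's 3' signal over its 5' signal, which rises when RNA or its labelled copy is shorter, was 7.85, 4.90 and 5.69 on the RD arrays and 9.29, 8.35 and 8.93 on the HFD arrays. The diets did not overlap in the actin ratio, and among the RD arrays the first came closest to HFD. They did overlap in the same ratio of the GAPDH and eIF-4a controls. In both, the first RD array lay above the second HFD array, at 2.40 and 2.25 for GAPDH. The second and the third RD arrays lay below all HFD arrays in both.

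Most of the family was dim in these adults. The mean signal over the 6 arrays lay above 30 for 28 of the 77 genes (36.4%), against 71.9% of all genes with a probe set of a single symbol. It was under 10 for 18 members, between 10 and 30 for 31, between 30 and 100 for 19 and above 100 for 9. By the RD arrays alone 27 members lay above 30, and by the HFD arrays alone 29. Just above that level were Lcp65Ac at 34.2, Lcp65Aa at 33.7 and Cpr72Eb at 32.9, and just below it Cpr30F at 28.5, Cpr47Ea at 27.9 and Cpr97Eb at 27.8. Probe sets differ in how strongly they bind, so the signals of different members are not compared as RNA levels, and in whole flies fewer cells that make an RNA and less RNA per cell cannot be told apart.

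**Figure D1:**
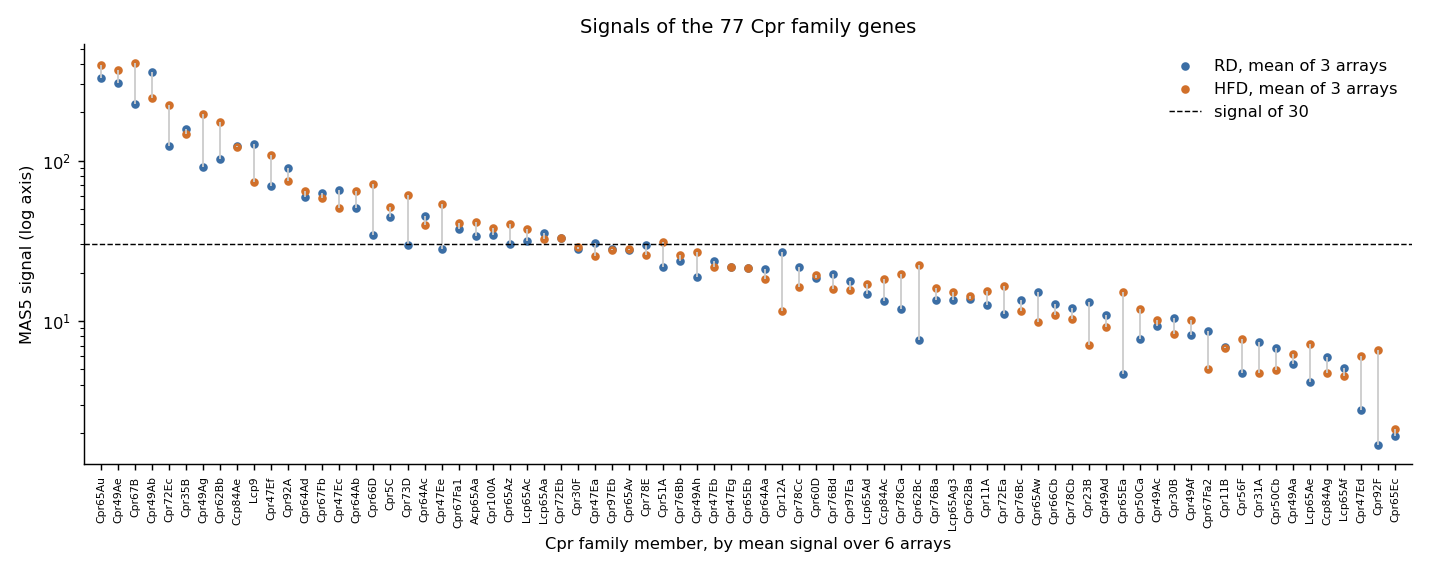
Mean MAS5 signal (log axis) of the 77 Cpr family genes on the 3 RD arrays (blue) and the 3 HFD arrays (orange), ordered by mean signal over the 6 arrays, with grey lines joining the diets. Of the 77 genes 28 lie above a mean signal of 30 (dashed line), and the highest mean is 361.

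The members of low signal were spread over the family rather than set in a single cluster. All 4 genes of division 76B, all 3 of 65E, all 3 of 78C and both of 50C and of 97E stayed under the filter, which removed probe sets with a signal below about 27.9. In gene order, the longest unbroken run of family genes held 16 genes, from Lcp65Ag3 to Acp65Aa, of which 10 were members here and 4 passed the filter. Signals of members under the filter varied more between arrays, with a median SD within a diet of 0.35 on the log2 scale for the 48 members removed and 0.19 for the 29 kept. The 48 members were therefore left out of the main test, and no difference in them can be called small or absent. When the filter was dropped, 10.4% of all 18769 probe sets passed, a share that includes the brighter ones. The share among the removed probe sets alone is not given here, so the members under the filter have no like comparison. Of the 48 members 1 passed, Cpr12A. Its signals were 26.6, 24.9 and 28.9 in RD and 9.80, 6.84 and 17.9 in HFD (limma, log2 -1.25, adjusted p = 0.0381 without the filter), nearly all under the filter's level, so the size of the difference was not measured.

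Which cuticle genes differ after a week on added fat was asked of the 29 members kept. Of these 29, 8 rose on HFD, namely Cpr49Ag, Cpr66D, Cpr73D, Cpr47Ee, Cpr72Ec, Cpr67B, Cpr62Bb and Cpr47Ef, and 2 fell, Lcp9 and Cpr49Ab (limma, adjusted p under 0.05 over all 11261 probe sets tested). Among all tested probe sets 12.9% rose and 6.63% fell, and among those in the same range of mean signal 16.7% rose and 4.0% fell. Cpr47Ee and Cpr30F passed the filter only through their HFD arrays, so their presence among the 29 was not independent of the difference. Of the 27 members above the filter in both diets 7 rose and 2 fell, where 12.4% of such probe sets rose and 6.60% fell, a restriction chosen after the data were seen. All HFD arrays lay above all RD arrays for 12 of the 29, against 23.2% of tested probe sets, and below them for 4, against 18.7%. The 29 had a median log2 fold change (HFD minus RD) of 0.21, beside 0.0083 for all tested probe sets and 0.089 for those in the same range of signal, and over all 77 members without the filter the median was 0.071, beside 0.020. No chance test was made of these shares. The arrays differed in median signal by diet, at 55.3, 53.1 and 52.8 in RD and 63.8, 62.3 and 60.7 in HFD. These medians were over all probe sets without controls, and the fit above had no further normalization. Centring each array on its median signal shifted the median log2 fold change of the whole tested set by -0.21. With that centring 7 members rose and 4 fell, where 8.63% of the tested probe sets rose and 35.7% fell, and with quantile normalization 6 rose and 4 fell, where 11.1% rose and 10.2% fell. A covariate for RNA length was the 3'/5' ratio averaged on the log2 scale over control probe sets of actin, GAPDH and eIF-4a. With it in the model 2 members rose, Cpr49Ag and Cpr67B, and none fell, with 10 of the 29 at an unadjusted p under 0.05. Of all tested probe sets 1.89% then rose and 0.471% fell. The median log2 fold change of the 29 was 0.22 in this fit, beside 0.0068 for all tested probe sets. It was -0.0031 with median centring, beside -0.20 for all, and 0.015 with quantile normalization, beside -0.037 for all. Diet and the actin ratio were linked in these 6 arrays, so a lost call does not tell which of them a difference follows.

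**Figure D2:**
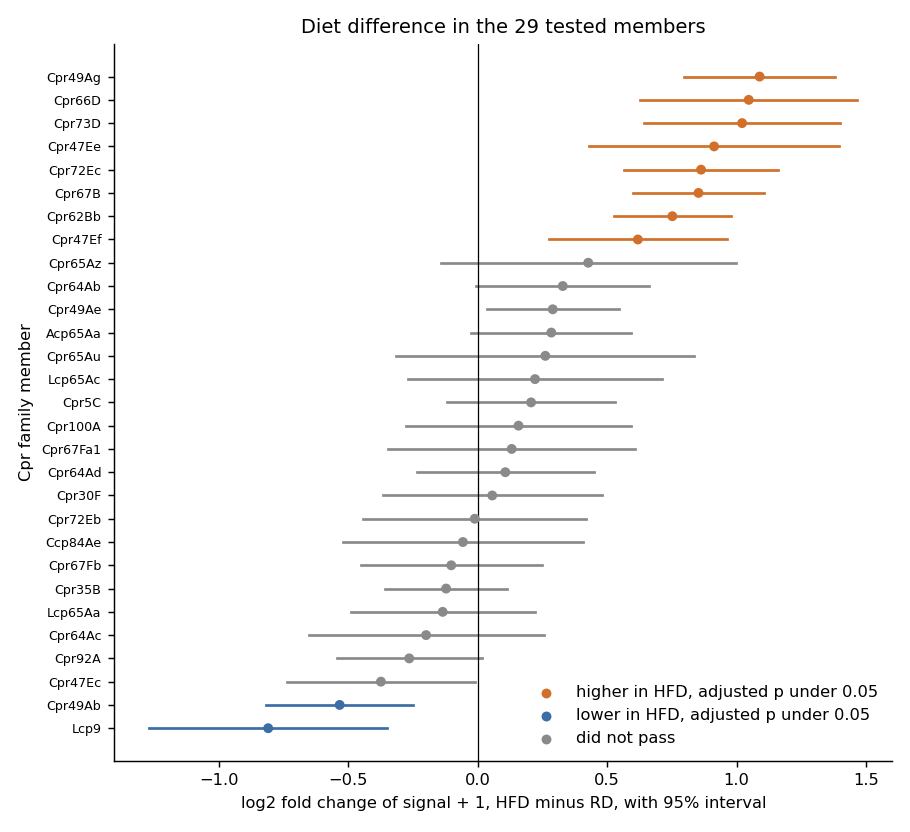
Log2 fold change of signal + 1, HFD minus RD, for the 29 tested members, with 95% intervals of the limma fit from 3 arrays per diet. The 8 orange genes lie above 0 and the 2 blue genes below it with adjusted p under 0.05, and the 19 grey genes did not pass.

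Cpr66D and Cpr72Ec code for proteins of the corneal lens of the eye, and both rose. The signal of Cpr66D was 41.9, 28.5 and 32.7 on the RD arrays and 82.3, 71.0 and 61.8 on the HFD arrays. All HFD arrays lay above all RD arrays, with 34.4 ± 6.87 in RD and 71.7 ± 10.3 in HFD (SD, n = 3 each), a 2.07-fold rise (limma, log2 1.05 ± 0.18 SE, adjusted p = 0.00768). For Cpr72Ec the signals were 142, 114 and 112 in RD and 219, 203 and 248 in HFD. They did not overlap either, and the rise was 1.82-fold (limma, log2 0.86 ± 0.13 SE, adjusted p = 0.00446). The lens gene retinin, which is no family member, rose 1.75-fold, from 518 ± 63.7 to 906 ± 110 (SD, n = 3 each; limma, adjusted p = 0.00372). Cpr72Eb, the neighbour of Cpr72Ec in gene order, averaged 32.8 in RD and 33.0 in HFD and did not pass (log2 -0.012, 95% interval -0.44 to 0.42). Photoreceptor markers moved with the lens genes, since 8 of 8 tested rose, against 12.9% of all tested probe sets. Their summed signal was 7231 to 7905 in RD and 12100 to 13358 in HFD. With that control ratio as a covariate, Cpr66D was at log2 0.71 (adjusted p = 0.160), Cpr72Ec at 0.63 (adjusted p = 0.0825) and retinin at 0.83 (adjusted p = 0.0537). Whether the share of eye RNA took part in the lens result was not tested.

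Cpr49Ag had the largest fitted rise among the 29 tested members. Its signal was 103, 88.0 and 84.0 on the RD arrays and 219, 177 and 192 on the HFD arrays. No HFD array came near an RD array, and the mean went from 91.7 ± 10.1 to 196 ± 21.4 (SD, n = 3 each), a 2.13-fold rise (limma, log2 1.09 ± 0.13 SE, adjusted p = 0.00234). The gene codes for a predicted structural protein of the cuticle, as do the other family members for which no role is given here. Of the 8 members in division 49A, 5 stayed under the filter. Cpr49Ae, with 293, 263 and 353 in RD and 379, 364 and 361 in HFD, had no overlap between diets but did not pass (log2 0.29, 95% interval 0.033 to 0.55, adjusted p = 0.104); without the third RD array it rose (log2 0.40, adjusted p = 0.0473).

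Cpr49Ab, of the same division, went the other way. Its signals were 315, 331 and 424 in RD and 260, 228 and 246 in HFD, all HFD arrays below all RD arrays, and it fell 1.45-fold (limma, log2 -0.53 ± 0.12 SE, adjusted p = 0.0213). The call was lost without the third RD array (adjusted p = 0.0594), without the second or the third HFD array (0.0754 and 0.0548) and with the control ratio in the model (0.229), over a range of 1.00e-04 to 0.229 in all settings. In gene order Cpr49Ab lies beside Cpr49Aa, and Cpr49Ag in a separate run of 3 family genes with Cpr49Ae and Cpr49Af.

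The genes Cpr67B and Cpr62Bb rose with little spread among arrays. Signals of Cpr67B were 231, 250 and 195 in RD and 407, 378 and 433 in HFD, a 1.81-fold rise (limma, log2 0.85 ± 0.11 SE, adjusted p = 0.00316). Cpr62Bb had 102, 97.7 and 108 in RD and 180, 167 and 173 in HFD, a 1.68-fold rise (limma, log2 0.75 ± 0.097 SE, adjusted p = 0.00319). The gap between diets was many times the spread in Cpr62Bb, whose SD in HFD was 6.55. Its neighbours Cpr62Ba and Cpr62Bc were under the filter, at a mean signal of 14.1 and 15.0. Cpr67B and Cpr49Ag kept their calls in every setting that held them, and Cpr62Bb in all of these but the fit with the control ratio (adjusted p = 0.0544).

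Division 47E held 7 members, of which 3 were tested. Cpr47Ef rose 1.54-fold, with signals of 72.8, 69.3 and 67.3 in RD and 90.03, 130 and 107 in HFD (limma, log2 0.62 ± 0.15 SE, adjusted p = 0.0247). The RD arrays were close together and the HFD arrays were spread, and the call was lost without the second or the third array of either diet (adjusted p of 0.0563 to 0.0884), under quantile normalization (0.0784), median centring (0.0561) and with the control ratio (0.191). A dimmer probe set of Cpr47Ef, under the filter, had 20.1, 16.4 and 20.5 in RD and 17.1, 11.6 and 14.2 in HFD, values that overlapped and lay mostly lower in HFD. Cpr47Ee had 35.4, 24.9 and 23.4 in RD and 46.2, 47.7 and 65.7 in HFD (limma, log2 0.91 ± 0.21 SE, adjusted p = 0.0208). The second and the third RD signals of Cpr47Ee were under the filter's level, so no fold is given, and its call was lost without the second RD array, the third RD array or the third HFD array (adjusted p of 0.0661, 0.0789 and 0.0536), under quantile normalization (0.0512) and with the control ratio (0.356). Cpr47Ec, in the same run of 4 family genes, averaged 65.9 in RD and 50.5 in HFD and did not pass (log2 -0.37, 95% interval -0.74 to -0.010, adjusted p = 0.132); it fell under quantile normalization (adjusted p = 0.0392) and median centring (adjusted p = 0.0190).

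Cpr73D rose from a dim level. Its signals were 35.7, 24.1 and 29.5 in RD and 62.3, 59.5 and 60.2 in HFD (limma, log2 1.02 ± 0.16 SE, adjusted p = 0.00594). The HFD arrays were nearly equal and all lay above the RD arrays, of which the second was below the level of the filter. With the control ratio in the model it was at log2 0.69 (adjusted p = 0.123).

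Lcp9 codes for a larval cuticle protein, and it fell. Its signals were 123, 127 and 129 in RD and 93.8, 74.7 and 52.3 in HFD, a 1.75-fold fall (limma, log2 -0.81 ± 0.20 SE, adjusted p = 0.0263). The RD arrays differed by only a few units while the HFD arrays were spread, with an SD of 3.32 and 20.8. The call was lost without the second or the third RD array (adjusted p of 0.0694 and 0.0844), without the second HFD array (0.0645) and with the control ratio in the model (0.247).

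**Figure D3:**
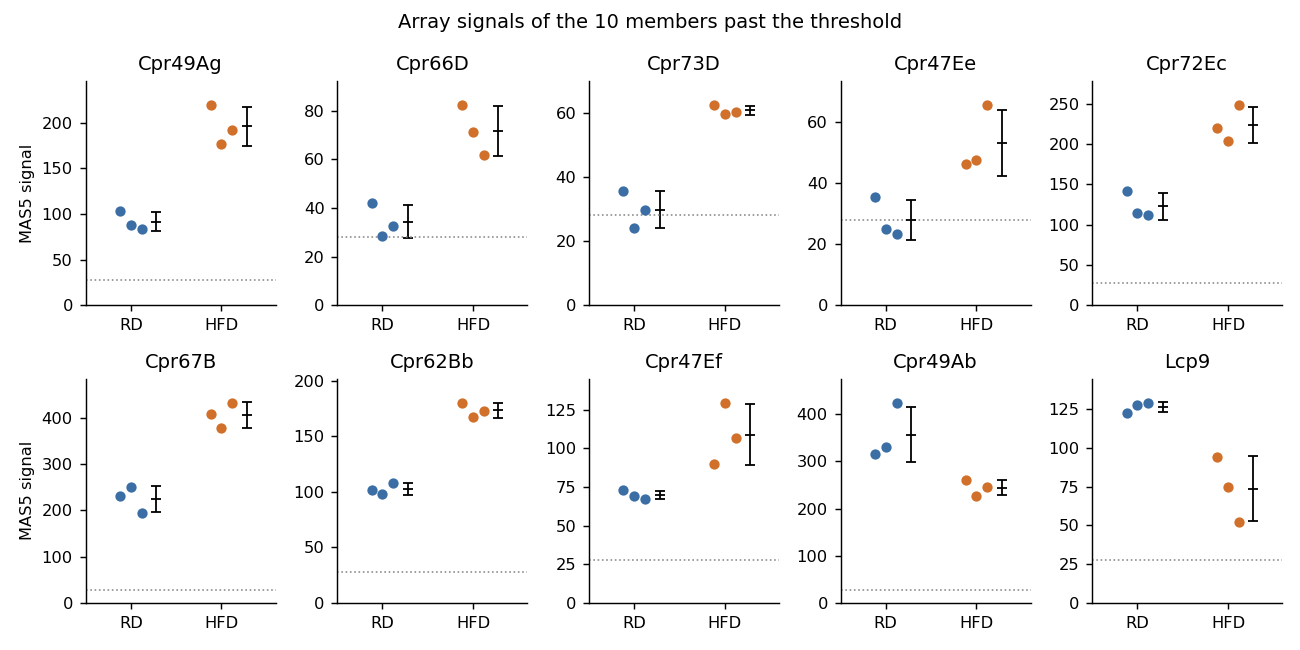
MAS5 signal on each array (points; RD blue, HFD orange, replicates in order from left to right) of the 10 members past the threshold, with mean ± SD in black (n = 3) and the level of the filter as a dotted line. In all 10 genes the diets do not overlap, and RD signals of Cpr73D and Cpr47Ee fall below the dotted line.

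Among the 19 tested members that did not pass, fitted log2 fold changes ran from -0.37 to 0.43, and the 95% intervals were 0.47 to 1.15 wide. Acp65Aa, named for adult cuticle, had 33.3, 33.2 and 35.3 in RD and 45.8, 38.5 and 40.5 in HFD. Its diets did not overlap, but it did not pass (log2 0.28, 95% interval -0.026 to 0.59, adjusted p = 0.171). Cpr65Au varied more between arrays, with 241, 344 and 391 in RD and 281, 371 and 535 in HFD (log2 0.26, 95% interval -0.31 to 0.84). None of the 5 tested members of division 65A passed, and none of the 3 tested of 64A. The diets overlapped for Cpr35B, at 158 ± 4.62 in RD and 146 ± 12.6 in HFD, and for Ccp84Ae, at 124 ± 8.46 and 122 ± 34.1 (SD, n = 3 each). Cpr92A was 90.3 ± 6.29 in RD and 75.0 ± 6.46 in HFD without overlap and did not pass (adjusted p = 0.159); it fell under quantile normalization (adjusted p = 0.0349) and median centring (adjusted p = 0.0194). Cpr64Ad (log2 0.11, 95% interval -0.24 to 0.45) and Cpr67Fb (log2 -0.10, 95% interval -0.45 to 0.25) overlapped between diets.

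**Figure D4:**
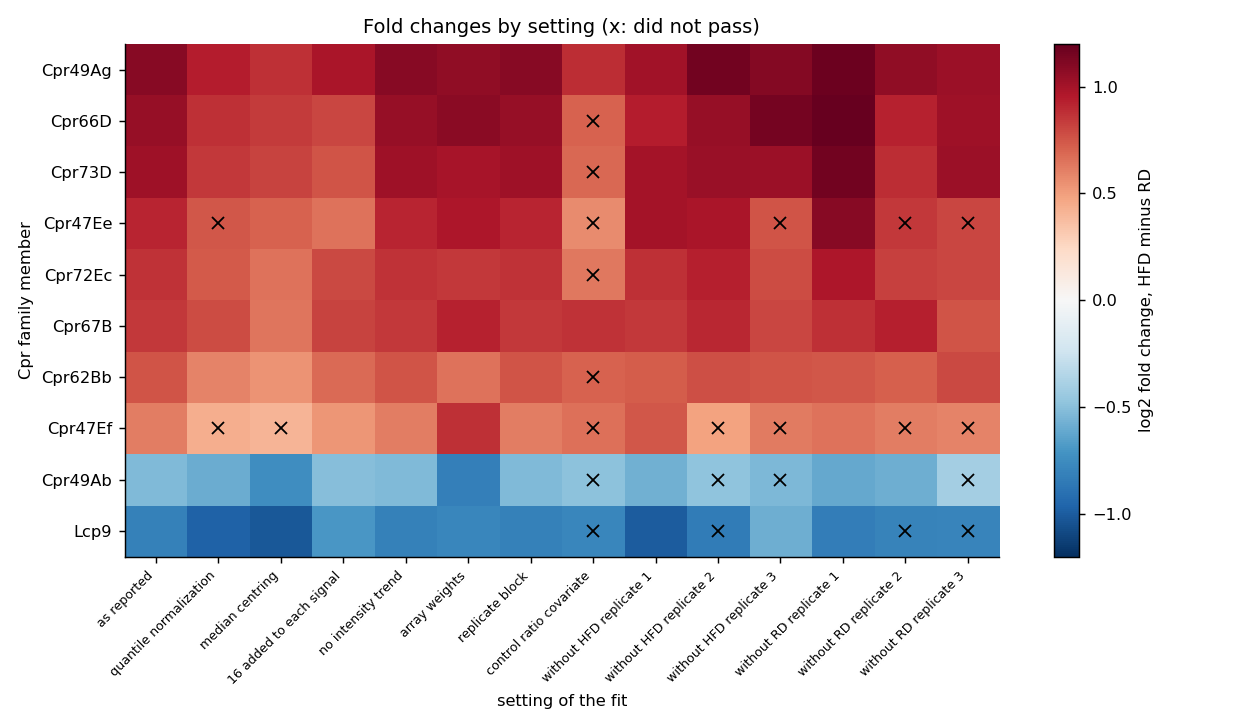
Log2 fold change, HFD minus RD, of the 10 called members (rows) as reported and in 13 other fits (columns), from blue (lower in HFD) to red (higher), with a cross where the adjusted p was 0.05 or above. No gene changes colour, and Cpr49Ag and Cpr67B have no cross.

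From 9 lists of other genes of cuticle building, 119 were named on the array and 83 tested, of which 19 rose and 4 fell, again beside 12.9% and 6.63% of all tested probe sets, and the median log2 fold change of the 83 was 0.24. Of the 80 above the filter in both diets 18 rose and 3 fell, where 12.4% of such probe sets rose and 6.60% fell. Median centring gave 13 that rose and 17 that fell, where 8.63% of all tested probe sets rose and 35.7% fell. The control ratio as a covariate gave 4 that rose, Gasp, Cht8, pio and FASN2, and 1 that fell, ftz-f1. Every other call in these lists was lost there, where 1.89% of all tested probe sets rose and 0.471% fell. Among deacetylases and proteins that bind or order chitin, 4 of 11 rose and none fell, with 2 that rose under median centring. Gasp, a chitin-binding protein of the tracheal cuticle, rose most, with 99.7, 112 and 86.6 in RD and 333, 273 and 208 in HFD, a 2.68-fold rise (limma, log2 1.42 ± 0.18 SE, adjusted p = 0.00299). The diets did not overlap for Gasp, whose HFD arrays were spread. The chitin deacetylase gene serp rose 1.77-fold, obst-E, a chitin-binding protein known to shape the larval body, rose 1.41-fold, and Muc11A rose 1.28-fold. In chitin synthesis 1 of 6 rose, Gfat1 (1.49-fold), whose enzyme opens the pathway to the amino sugar of chitin. The chitin synthase gene kkv stayed under the filter, with 15.1, 9.30 and 8.60 in RD and 22.9, 39.2 and 23.5 in HFD. Of 14 chitinases and relatives 1 rose, Cht8 (1.87-fold). Under median centring 2 of the 6 synthesis genes and 4 of the 14 chitinases and relatives fell, where 35.7% of all tested probe sets fell. The call of serp was lost without the first HFD array (adjusted p = 0.0506), that of obst-E without the second HFD, the second RD or the third RD array (0.0555 to 0.0711), under quantile normalization (0.0741) and under median centring (0.103). That of Muc11A was lost without any single array other than the first RD array (0.0533 to 0.0928), under median centring (0.209) and without the intensity trend (0.0729).

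Proteins with a zona pellucida domain, which anchor cells to the matrix on their outer face, had 2 higher and none lower among the 4 above the filter in both diets. The signal of pio went from 177 ± 22.4 to 352 ± 3.47 (SD, n = 3 each), a 1.99-fold rise (limma, log2 0.99 ± 0.11 SE, adjusted p = 0.00175), and dpy rose 2.08-fold. The gene mey had 26.2, 25.7 and 19.7 in RD, all under the level of the filter, and 80.7, 154 and 48.5 in HFD (limma, adjusted p = 0.0141), and it passed the filter only through HFD. Of 12 tested enzymes and relatives for pigment and tanning 4 rose and none fell. Ddc, which makes dopamine for tanning and in neurons, rose 1.94-fold, yellow-e 1.46-fold, t, whose enzyme frees dopamine from its conjugate and histamine in the eye, 1.39-fold, and Pu, of pteridine synthesis, 1.24-fold. Under median centring 2 of the 12 rose and 2 fell, where 8.63% of all tested probe sets rose and 35.7% fell. Calls were also lost under median centring for Pu (adjusted p = 0.327) and yellow-e (0.105), and for yellow-e under quantile normalization (0.121) and without the filter (0.0501). Calls lost without single arrays were those of dpy (any HFD array, adjusted p of 0.0610 to 0.0891), mey (the third RD array, 0.0526), Pu (the second HFD or the third RD array, 0.0657 and 0.0555) and yellow-e (any array but the third RD array, 0.0641 to 0.125).

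Tweedle proteins, another family of cuticle proteins, had 1 of 11 higher, TwdlB (log2 0.38 ± 0.072 SE), and 1 lower, TwdlY (limma, log2 -0.53 ± 0.15 SE, adjusted p = 0.0488), which passed the filter only through RD. The 7 other cuticle and lens genes tested had 1 higher, retinin. The signal of resilin, the rubber-like protein of joints and wing hinges, was 29.1 ± 2.71 in RD and 30.8 ± 3.08 in HFD (SD, n = 3 each) and did not pass (95% interval of the log2 fold change -0.27 to 0.43). Of 10 transcription factors of moulting and cuticle 3 rose, Blimp-1 (1.79-fold), Hr3 (1.66-fold) and grh (1.45-fold), the last a factor of the epidermal barrier, and ftz-f1 fell by 0.31 on the log2 scale. The call of Hr3 was lost without any single array other than the first RD array (adjusted p of 0.0890 to 0.130), under quantile normalization (0.0976), median centring (0.0561), no filter (0.0602) and no intensity trend (0.0633), and with the control ratio (0.634). Blimp-1 lost its call without the first HFD, the second HFD or the third RD array (0.0801, 0.0570 and 0.0644) and with the control ratio (log2 0.38, 0.349), and ftz-f1 without the second HFD or the third RD array (0.0575 and 0.0638). Median centring gave 2 factors that rose and 3 that fell, where 8.63% of all tested probe sets rose and 35.7% fell. In the list of oenocytes, the cells that make the hydrocarbons coating the cuticle, 1 of 7 rose, FASN2 (2.05-fold), and 2 fell, FASN3 and bond, by 0.62 and 0.40 on the log2 scale. Calls were also lost for bond without the first or second HFD array or the second or the third RD array (adjusted p of 0.0577 to 0.0695), for TwdlB without the third RD array (0.0513) and under median centring (0.120), and for TwdlY without any single array (0.0547 to 0.139), with 16 added to each signal (0.0504), without the filter (0.0748) and with the replicate block (0.0712). Muc11A, Pu and ftz-f1 were named after their values were seen, to complete their lists.

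Markers of other tissues moved with the same contrast, in which 12.9% of all tested probe sets rose and 6.63% fell. Of 14 muscle genes 13 rose, with a summed signal of 10343 to 13783 in RD and 21025 to 24545 in HFD, and of 11 neuron genes 11 rose, with 1557 to 2088 and 3126 to 3334. Eggshell genes went down, 9 of 12, with 80924 to 84919 in RD and 57056 to 60408 in HFD, and so did 4 of 8 midgut genes and 2 of 3 yolk genes, whose summed signals did not overlap between diets. The midgut genes that fell were Jon25Bi, Jon25Bii, Jon99Ci and Jon66Ci, at log2 -3.41 to -1.46. The midgut genes mex1, alphaTry, betaTry and Mal-A1 did not pass, at log2 -0.24 to -0.089. The muscle, neuron, eggshell, midgut and yolk lists kept their direction under both rescalings. With the control ratio as a covariate 5 muscle, 4 neuron and 5 photoreceptor genes rose, and 2 eggshell, 4 midgut and 0 yolk genes fell. In that fit 1.89% of all tested probe sets rose and 0.471% fell. The part of these tissue markers in the differences among the cuticle genes was not tested.

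**Figure D5:**
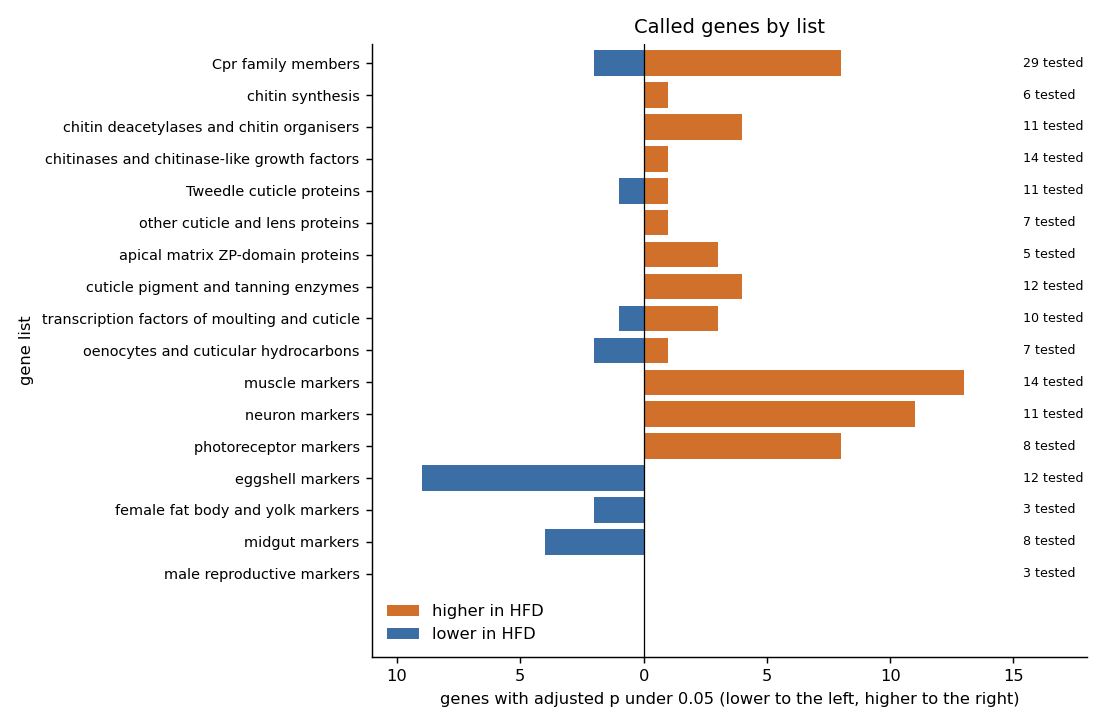
Number of tested genes with an adjusted p under 0.05 that were higher (orange, right) or lower (blue, left) in HFD, for the Cpr family, 9 lists of cuticle genes and 7 lists of tissue markers, with the number tested at the right. The Cpr family has 8 of 29 higher and 2 lower, beside 13 of 14 muscle genes higher and 9 of 12 eggshell genes lower.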

How the data were processed

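Titles in the labels put 6 arrays into 2 diets, 3 each. The authors deposited an intensity on a linear scale for each probe set, computed with MAS5 per the submitters' processing notes; its version and scaling target are not given in the sources used here, and no detection calls were used. Of 18952 probe sets, 183 controls were left out. A value of 1 was added before log2, and probe sets with a mean log2 signal at or below the 40th percentile of 18769 (4.86) were dropped, which left 11261. The added 1 understates folds of dim probe sets. Signals of members under the filter also varied more between arrays, so dim folds are not lower bounds. HFD was compared with RD by limma 3.58.1 in R 4.3.3 (eBayes with an intensity trend, two-sided, Benjamini-Hochberg over 11261, threshold 0.05), with no further normalization. The number of arrays limits the precision.

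Gene names came from the array annotation, in which 13647 probe sets had a single symbol, and all 77 members had the same symbol in the Release 6 gene table, used here for gene order only. No sequences or coordinates are given. Members, lists and alternatives were chosen with earlier results of these data known. Genes named were all called members, the 8 brightest others tested, members nearest a signal of 30, fixed genes (Acp65Aa, Cpr66D, Cpr72Ec, retinin, resilin, kkv) and up to 3 per cuticle list. On simulated data for this comparison (200 of 11261 probe sets changed), log2 changes of 0.5, 1 and 2 were recovered for 41.8%, 94.0% and 100% of changed probe sets, and 4.27% of calls were false. In the data 2196 probe sets were called, many more than were changed there, so these shares need not hold for the calls above. Figures used Python 3.11.15 and matplotlib 3.10.9.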

Additional observations from a re-analysis of the deposited data

How the results depend on the processing

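Cpr family genes that rose, 8 as reported, numbered 2 with the filter at the 60th percentile, which kept only 6 members, and 2 with the 3'/5' ratio of the controls as a covariate, and ran from 6 to 8 when single arrays were left out. Members that fell, 2 as reported, numbered 4 with quantile normalization, 4 with median centring, 5 with array weights, 1 with the 60th percentile, 0 with the control ratio, where 10 of the 29 members had an unadjusted p under 0.05, and 1 at a fold of 1.5 or more. They ran from 0 to 2 without single arrays: 0 without the second HFD array or the third RD array and 1 without the third HFD array or the second RD array. Other cuticle genes that rose, 19 as reported, numbered 42 with array weights, 4 with the control ratio and 11 at 1.5-fold, and 12 to 22 without single arrays, with 12 each without the second HFD array and the third RD array. Those that fell, 4 as reported, numbered 17 with median centring, 11 with array weights, 7 with the replicate block, 1 with the control ratio and 1 at 1.5-fold, and 1 to 3 without single arrays, with 2 without the second RD array and 1 without the third RD array. The estimate of the array weights stopped before it converged and put 85.5% of the weight of the RD arrays on the third and 87.9% of that of the HFD arrays on the second, so its counts, all probe sets included, rest largely on 1 array a group; it also gave a call to 5 members that did not pass, Cpr47Ec, Cpr64Ab, Cpr65Az, Cpr67Fb and Cpr92A, and to resilin. Other causes of these moves were not tested. All called probe sets numbered 2196, or 4995 with median centring, 6129 with array weights, 266 with the control ratio and 1361 with the 60th percentile, and 1310, 1250, 1338 and 1008 without the first or second HFD array and the second or the third RD array. They were 34.0% lower as reported, 48.0% with quantile normalization and 80.5% with median centring. No other alternative moved a count of the family by over 1.5 times, and no called member changed sign in any fit that held it. Among members that passed in neither fit, fitted log2 changes crossed 0 for 5 with median centring, itself a shift of -0.21 for the typical probe set, for 4 with quantile normalization, 4 with array weights and 3 with the control ratio, and for 0 to 2 without single arrays. Values of the genes named above that crossed 0 follow. Ccp84Ae (-0.058 as reported) was at 0.046 with the control ratio and ran from -0.24 to 0.18 without single arrays. Cpr30F (0.056) was at -0.093 with quantile normalization, -0.15 with median centring and -0.062 to 0.22 without single arrays. Cpr64Ad (0.11) was at -0.087, -0.10 and -0.018 to 0.22 in the same order. Cpr65Au (0.26) was at -0.0045 with array weights. Cpr72Eb (-0.012) was at 0.022 with array weights, 0.055 with the control ratio and -0.13 to 0.17 without single arrays. Resilin (0.081) was at -0.059, -0.13 and -0.013 with quantile normalization, median centring and the control ratio. Members above a mean signal of 100 numbered 9.

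With the replicate number as a block 8 members rose and 2 fell, the same 10 genes; arrays of equal number had deviations correlated at 0.072, 0.10 and 0.027 across probe sets, so the numbers were not taken as pairs.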

Other observations

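Cpr62Bc, beside Cpr62Bb in gene order, had signals of 0.02, 14.2 and 8.55 in RD and 19.3, 25.9 and 21.8 in HFD, all below the level of the filter. Cpr92F had 1.29, 2.44 and 1.33 in RD and 5.33, 5.64 and 8.67 in HFD. Both genes had no overlap between diets and did not pass in the fit without the filter. Other members under the filter without overlap were Cpr78Ca, Cpr50Ca and Cpr47Ed, higher in HFD, and Cpr12A and Cpr67Fa2, lower in HFD. Of these others only Cpr12A passed in that fit. Among tested probe sets, all HFD arrays lay above all RD arrays for 23.2% and below them for 18.7%. The share among the removed probe sets is not given here, so these members have no like comparison. All members named here were chosen after their values were seen, and signals this dim give no fold.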
